A study of Mus musculus with 2 samples.

Results

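The receptors of the interleukin-1 (IL-1) family were read as 8 genes, found by symbol in the gene list of the count matrices, which holds 31053 genes in all: *Il1r1*, *Il1r2*, *Il1rap*, *Il1rl1*, *Il1rl2*, *Il18r1*, *Il18rap* and *Il18bp*. All 8 had UMIs (unique molecular identifiers, each standing for 1 captured transcript) in both of the single-cell libraries, 1 from dermis and 1 from epidermis. The cells came from the ears of wild-type C57BL/6 mice that had received imiquimod (IMQ) on 5 days in a row, a Toll-like receptor agonist cream used to provoke psoriasis-like skin inflammation. The labels give their age as 10 weeks, whereas the study's methods give a younger age for its IMQ model. Dead cells were removed by sorting, and the study's methods state that dermal cells were also sorted for CD45, the leukocyte surface protein encoded by *Ptprc*, whereas live epidermal cells were taken without that gate. There was 1 library for each tissue and none of untreated skin, so every value describes these libraries, no test was possible between tissues, and the tissue cannot be told apart from the library. The number of mice behind each library is not given in the sources used here.

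After removal of cells with under 200 genes or more than 10% mitochondrial UMIs, 4747 of 5376 dermal barcodes (median 7010 UMIs per cell) and 4173 of 5258 epidermal barcodes (median 25918) remained. A cell entered a type when at least 3 markers of that type were detected and its score led the next by a margin. The margin was not required among keratinocyte types, nor among dendritic cell types other than Langerhans cells. A name such as neutrophil below stands for the cells that passed that gate. The gates took 83.4% of dermal and 95.5% of epidermal cells, which gave 17 dermal and 9 epidermal groups of 20 cells or more, 14 of them with 50 or more. T cells were divided by a *Foxp3*, *Trdc* or *Trac* UMI, and the 47 T cells without any of these, led by *Il13*, *Gata3* and *Icos*, are called other T cells. Dermal fibroblasts passed their gate in 334 cells although the sort was for CD45, and 26.9% of them held a *Ptprc* UMI against 64.0% of all kept dermal cells. Mast cells had a median of only 825 UMIs, and 6 of their 10 leading genes were markers that the gate itself selected for. Of the barcodes, 45 occurred in both libraries, and without them the *Il1r2* level of neutrophils, the group that held most, stayed at 1995 CPM. Levels are UMIs of the gene per 1000000 UMIs of the group (CPM), given with an exact Poisson interval, shares with an exact Clopper-Pearson interval, and ratios of levels with an exact conditional interval, all at 95% and for counting error only. Where a group had no UMI of a gene, the level that a count of 0 allows is that of 3 UMIs.

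Members of this family share an intracellular domain with the Toll-like receptors and signal through MyD88 and IRAK kinases to NF-κB. A ligand-binding chain (IL-1R1 for IL-1α and IL-1β, ST2, encoded by *Il1rl1*, for IL-33, and IL-36R, encoded by *Il1rl2*, for the IL-36 cytokines) recruits the accessory protein IL-1RAP, while IL-18 uses its own pair, encoded by *Il18r1* and *Il18rap*. Restraint comes from IL-1R2, a decoy that binds IL-1 and lacks the signalling domain, and from IL-18BP, a secreted protein that binds IL-18. In skin the family is best known for neutrophil recruitment, for the IL-17 response of γδ T cells and for the IL-36 loop of psoriasis. UMI counts summed per gene do not tell the membrane form of ST2, IL-1RAP or IL-1R2 from the soluble one. Of the 8 genes, 6 sit on 1 strand of chromosome 1 within 477.6 kb (GRCm38, chr1:40074079-40551705), in the order *Il1r2*, *Il1r1*, *Il1rl2*, *Il1rl1*, *Il18r1*, *Il18rap*. *Il1rap* lies on chromosome 16 (chr16:26581704-26730117) and *Il18bp* on chromosome 7 (chr7:102014885-102018690). In spite of this tight cluster, the members differed widely in the cells that held them.

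The leading groups were *Il1r1* in fibroblasts, *Il1r2* and *Il1rap* in neutrophils, *Il1rl1* in mast cells, and *Il1rl2* in fibroblasts and keratinocytes. *Il18r1* and *Il18rap* led in basophils and T cells, with *Il18rap* also in neutrophils, and *Il18bp* in macrophages, endothelial cells and neutrophils. A UMI was seen in all 26 groups for *Il1r2*, in 24 for *Il1rap* and *Il18rap*, and in 15 for *Il1rl2*, the gene seen in the fewest groups.

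**Figure D1:**
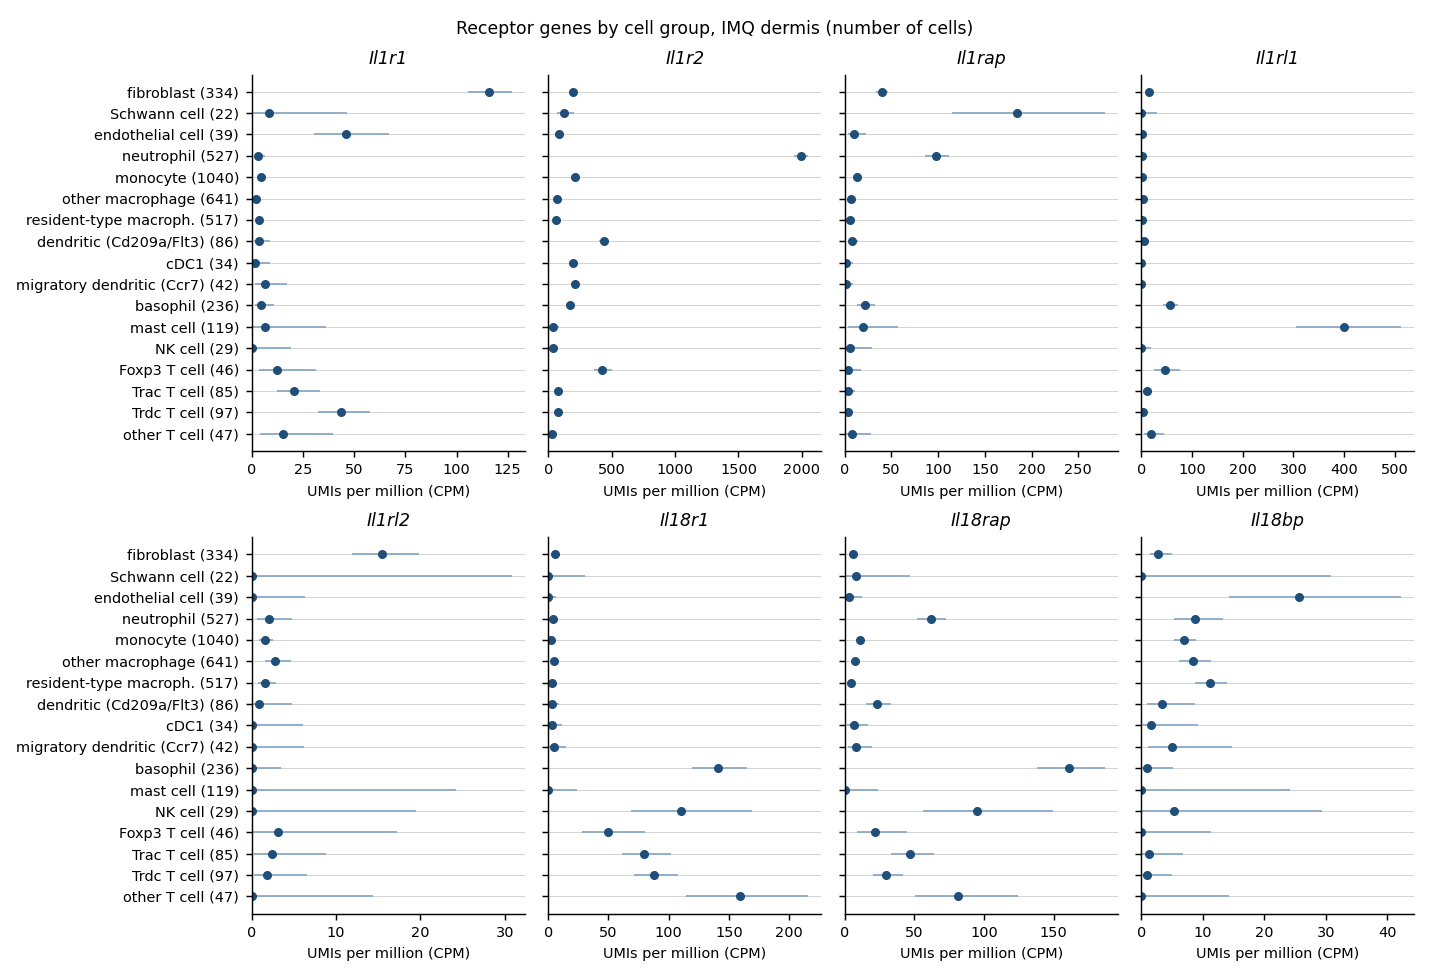
CPM of the 8 genes in the 17 dermal cell groups (1 panel per gene, points with 95% Poisson intervals, 1 library). Fibroblasts sit at 116 CPM in the *Il1r1* panel, neutrophils at 1995 in the *Il1r2* panel and mast cells at 399 in the *Il1rl1* panel.

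Fibroblasts held the highest *Il1r1* level, the signalling IL-1 receptor. Their 457 UMIs gave 116 CPM (106 to 127), and 172 of 334 cells (51.5%, 46.0 to 56.97%) held at least 1, with 18 in the richest cell. This was 17.1 times the level of the other gated dermal cells (14.4 to 20.2), and fibroblasts carried 64.5% (60.8 to 68.0%) of all dermal *Il1r1* UMIs. Neutrophils, taken as a low reference group, stood at 3.31 CPM, and macrophages outside the resident-type group were lower at 2.25 CPM. A UMI was seen in 1.52% (0.66 to 2.97%) of neutrophils, at a median of 3700 UMIs against 10072 in fibroblasts. The level of RNA that drifts between droplets was not estimated. With every cell thinned to 1000 UMIs, 10.7% of fibroblasts (7.59 to 14.6%) and 0.20% of neutrophils (up to 1.09%) held one.

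Endothelial cells (46.2 CPM, 27 UMIs in 39 cells) and dermal *Trdc* T cells (43.6 CPM, 32.2 to 57.9, 48 UMIs) came next for *Il1r1*, and their order was not resolved (ratio 1.06, 0.63 to 1.73). Fibroblasts exceeded endothelial cells by 2.51 times (1.70 to 3.85). *Trac* T cells had 20.9 CPM from 17 UMIs, so *Trdc* T cells exceeded them by 2.09 times (1.18 to 3.88). The 8 fibroblast marker genes together reached 1.32% of their fibroblast level in *Trdc* T cells, where *Il1r1* reached 37.6% of its own. The part of fibroblast RNA in this *Il1r1* level was not tested. Epidermal *Trdc* T cells, the type that includes dendritic epidermal T cells, had 7 *Il1r1* UMIs in 452 cells (6.19 CPM), and the dermal level was 7.04 times as high (3.17 to 18.5). The 2 sets of *Trdc* T cells came from different libraries and depths (medians 9658 and 2345.5 UMIs). Keratinocytes were low and even, at 5.45 CPM in basal cells (463 UMIs) and 5.24 in spinous cells, a ratio of 0.96 (0.75 to 1.22).

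The fibroblast level varied with *Tnc*, the gene of tenascin-C, an extracellular matrix protein made by activated fibroblasts. *Il1r1* reached 125 CPM in the 232 fibroblasts with a *Tnc* UMI and 81.3 in the 102 without (ratio 1.54, 1.18 to 2.03). The cells with *Tnc* were deeper (medians 11745.5 and 6785 UMIs), and after thinning to 1000 UMIs the shares with *Il1r1* were close, at 11.2% and 9.57%. *Il1rap* was likewise higher in *Tnc* positive cells, 1.78 times (1.11 to 2.9996). *Coch*, which the study uses with *Tnc* to mark a papillary subset, made no such division, since *Il1r1* differed by a ratio of 1.02 (0.84 to 1.23) and *Il1rap* by 1.01 (0.73 to 1.41).

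*Il1r2*, the decoy receptor, had its highest dermal level in neutrophils by a wide margin, while its UMIs were spread over many groups. The 527 dermal neutrophils held 4817 UMIs, 1995 CPM (1939 to 2052), which was 40.0% (39.1 to 40.9%) of all dermal *Il1r2* UMIs and 13.2 times the level of the other gated cells. It was found in 497 neutrophils (94.3%, 92.0 to 96.1%), and in 79.3% once cells were thinned to 1000 UMIs. The UMIs per neutrophil ranged from 0 to 54 with a median of 7, and the 188 cells (35.7%) with 10 or more held 68.5% of them. The 24 epidermal neutrophils had 177 UMIs (2867 CPM, 2460 to 3322), so neutrophils led in both tissues. Dermal cells that passed no gate carried another 20.03% of the dermal *Il1r2* UMIs, at 403 CPM. With clusters named by the same markers in place of gates, 755 neutrophils held 6466 of the 12048 dermal UMIs. The neutrophil share thus depended on the gate.

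Langerhans cells, the dendritic cells of the epidermis, ranked next. Their 1063 UMIs gave 737 CPM (693 to 782), 51.0 times the rest of the gated epidermis, which was mostly keratinocytes, and 149 of 174 cells (85.6%, 79.5 to 90.5%) held one. Counts were uneven here too: the median was 3, the highest 52, and 39 cells with 10 or more held 64.5% of the UMIs. The 20 epidermal basophils had 502 CPM, but 15 of their 31 UMIs were in 1 cell. Dermal dendritic cells gated on *Cd209a* or *Flt3* had 437 CPM (515 UMIs) and the 46 *Foxp3* T cells, regulatory T cells by that marker, had 426 CPM (138 UMIs, 358 to 504), levels that were not separated (ratio 1.03, 0.85 to 1.248). Migratory dendritic cells (212), monocytes (210), fibroblasts (199), cDC1 (194) and basophils (170 CPM) formed a lower tier, and both macrophage groups lay between 64.8 and 67.4 CPM.

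Outside neutrophils, *Il1r2* was read beside the 7 neutrophil markers, summed. In dendritic cells the markers were at 0.85% of the neutrophil level and *Il1r2* at 21.9%. In *Foxp3* T cells the figures were 1.18% and 21.4%, in monocytes 3.18% and 10.5%, and in fibroblasts 3.78% and 9.97%. Neutrophil RNA in the proportion of the markers would amount to 16.9 CPM of *Il1r2* in dendritic cells, 23.6 in *Foxp3* T cells, 63.4 in monocytes and 75.4 in fibroblasts, beside measured levels of 437, 426, 210 and 199 CPM. In mast cells the same calculation gave 43.5 CPM and the measured level was 39.3. The part of neutrophil RNA in these levels was not tested. In *Trdc* T cells (80.9 CPM) 33 of 89 UMIs came from 1 cell. In the epidermis, basal keratinocytes had 11.7 CPM (992 UMIs) and spinous keratinocytes 5.76, a ratio of 0.49 for spinous over basal (0.39 to 0.61), and of 0.42 without the 439 of 3154 keratinocytes close to the boundary between the groups. Basal cells were uneven within: the 2345 with a *Mki67* or *Top2a* UMI had 10.5 CPM and the 238 without had 43.5 (ratio 0.24, 0.20 to 0.29). The cells without were shallower (medians 9455 and 33903 UMIs). The part of Langerhans cell or neutrophil RNA in these keratinocyte levels was not tested.

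**Figure D2:**
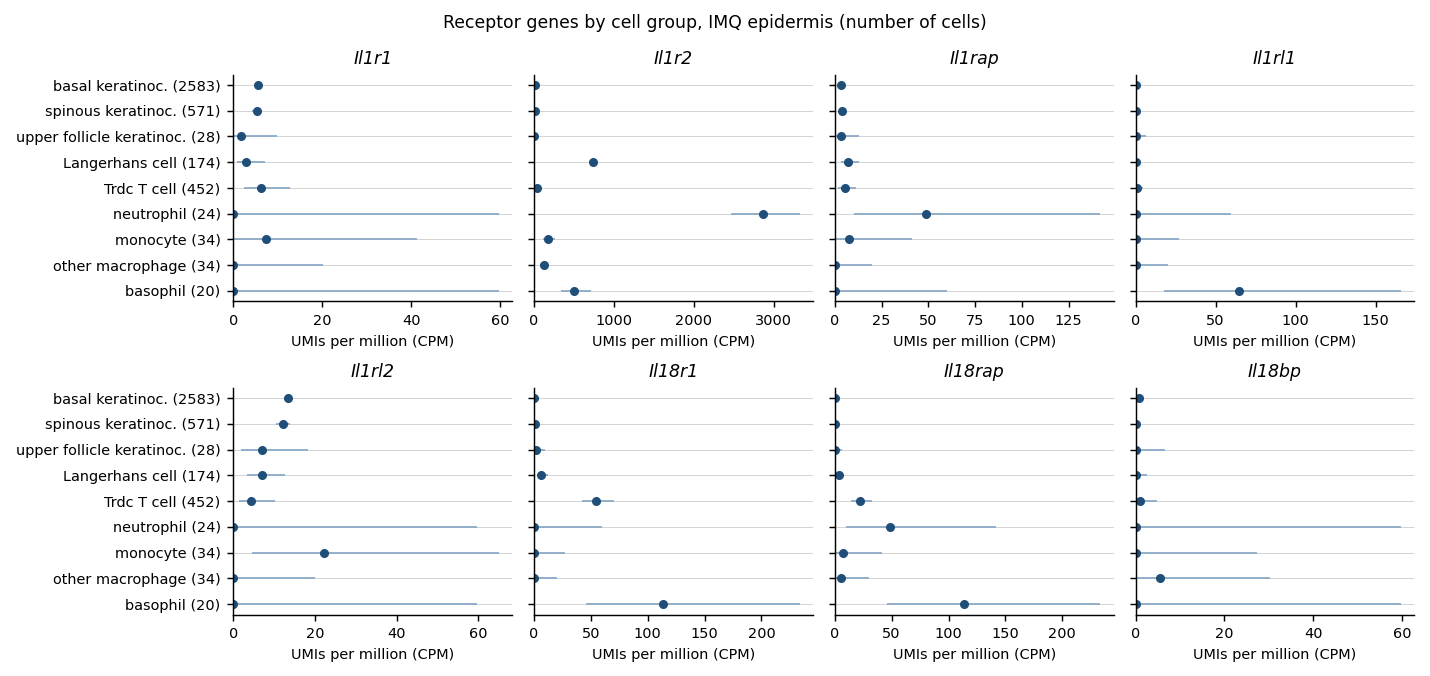
CPM of the 8 genes in the 9 epidermal cell groups (points with 95% Poisson intervals, 1 library). *Il1r2* peaks in the 24 neutrophils at 2867 CPM and in Langerhans cells at 737, and *Il1rl2* lies at 13.3 CPM in basal and 12.1 in spinous keratinocytes.

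*Il1rap*, the accessory chain that IL-1R1, ST2 and IL-36R share, was highest among large groups in neutrophils, with 237 UMIs and 98.1 CPM (86.1 to 111) and a UMI in 32.3% of cells (28.3 to 36.4%). The 22 Schwann cells, the glia of peripheral nerves, stood higher at 184 CPM (115 to 278), but from 22 UMIs in 9 cells, and the ratio to neutrophils was 1.87 (1.15 to 2.90). Fibroblasts had 39.8 CPM (157 UMIs, 31.7% of cells), above basophils at 21.4 (ratio 1.86, 1.20 to 3.02). Monocytes had 13.2 CPM, and T cells were near the bottom, with 3.68 CPM from 3 UMIs in *Trac* T cells and 3.64 CPM from 4 UMIs in *Trdc* T cells. Keratinocytes were similar across layers, at 3.19 CPM in basal and 3.99 in spinous cells (ratio 1.252, 0.93 to 1.66).

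Among the 8 members, 2 (*Il1r1* and *Il1rl2*) exceeded 4 times the level of the other gated dermal cells in fibroblasts, where 11.5% of the 13028 genes with 20 or more UMIs did so. In neutrophils 2 members passed the same limit (*Il1r2* and *Il1rap*), beside 2.8% of genes. Downward, at or below 1/4 of the rest, there was no member in fibroblasts, beside 6.96% of genes, and 1 (*Il1r1*) in neutrophils, beside 13%.

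**Figure D3:**
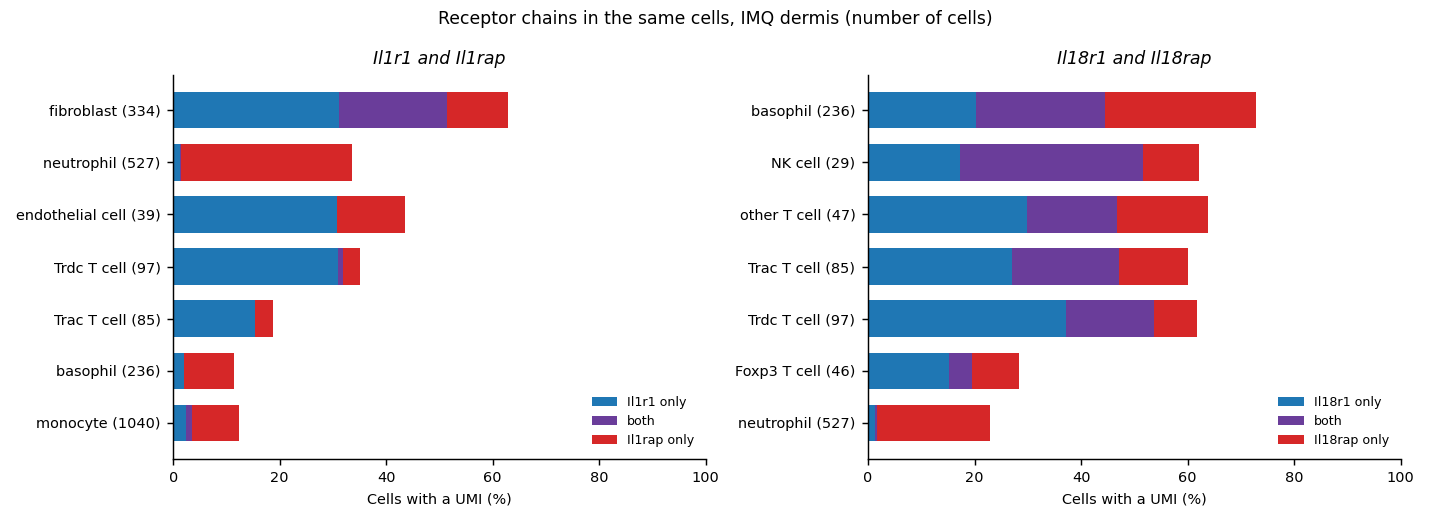
Share of cells in selected dermal groups with a UMI of the first chain only, the second only or both. The pairs are *Il1r1* with *Il1rap* and *Il18r1* with *Il18rap* (cells as sequenced, 1 library). Fibroblasts show both IL-1 receptor chains in 68 of 334 cells, and basophils both IL-18 receptor chains in 57 of 236.

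Since signalling needs both chains, the cells were also read jointly. Of the 334 fibroblasts, 172 held *Il1r1*, 106 held *Il1rap* and 68 held both. *Il1rap* was present in 39.5% of the *Il1r1* positive and 23.5% of the *Il1r1* negative fibroblasts, and the positive cells were deeper (medians 11888 and 7870 UMIs). After thinning to 1000 UMIs, 2 of 326 fibroblasts showed both. Neutrophils held *Il1rap* in 170 cells but *Il1r1* in 8, with both in 1. *Trdc* T cells had *Il1r1* in 31 of 97 cells and both in 1. For fibroblasts, the decoy overlapped as well: 116 of 334 held *Il1r1* and *Il1r2* together, with *Il1r2* in 67.4% of the *Il1r1* positive and 56.2% of the negative cells. After thinning, 5 of 326 fibroblasts showed both, with *Il1r2* in 14.3% of the *Il1r1* positive and 12.7% of the negative cells.

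*Il1rl1*, which encodes the IL-33 receptor ST2, had few UMIs, 295 in dermis and 38 in epidermis. Its gene has a distal start, known from mast cells, and a proximal start, known from fibroblasts, which 3′ counts do not tell apart. The stretches before both starts are shown because mast cells stood far above other groups for this gene, and those of its neighbours *Il18r1* and *Il18rap* because basophils held all 3. Sequences are from RefSeq (GRCm38.p6, + strand), each the longest part of the 250 bases before the start that held no annotated exon, and capitals mark matches on either strand to 4 motif cores, namely GATAA for GATA factors, TGANTCA for AP-1, TGTGGT for RUNX and TTGCNNAA for C/EBP.

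*Il1rl1*, before the distal start, chr1:40429320-40429569: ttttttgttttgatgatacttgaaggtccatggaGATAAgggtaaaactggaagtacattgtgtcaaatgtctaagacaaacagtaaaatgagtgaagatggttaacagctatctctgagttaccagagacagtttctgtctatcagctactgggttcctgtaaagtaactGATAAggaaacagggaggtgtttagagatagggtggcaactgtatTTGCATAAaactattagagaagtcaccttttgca

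*Il1rl1*, before the proximal start, chr1:40439379-40439626: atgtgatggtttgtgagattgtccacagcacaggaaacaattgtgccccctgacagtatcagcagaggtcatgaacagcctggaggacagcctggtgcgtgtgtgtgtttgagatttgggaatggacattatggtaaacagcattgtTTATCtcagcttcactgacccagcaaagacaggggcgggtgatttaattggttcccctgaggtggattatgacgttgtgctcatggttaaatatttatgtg

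*Il18r1*, from the end of *Il1rl1* to its first start, chr1:40465416-40465551: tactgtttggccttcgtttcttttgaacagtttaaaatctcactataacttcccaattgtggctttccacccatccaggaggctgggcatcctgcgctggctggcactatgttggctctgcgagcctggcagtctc

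*Il18rap*, chr1:40515112-40515361: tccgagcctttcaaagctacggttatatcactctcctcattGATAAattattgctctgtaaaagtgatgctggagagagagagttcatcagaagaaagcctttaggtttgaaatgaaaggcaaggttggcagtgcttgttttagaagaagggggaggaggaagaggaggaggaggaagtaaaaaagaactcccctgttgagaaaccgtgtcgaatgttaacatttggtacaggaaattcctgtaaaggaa

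*Il1r2*, the gene with its highest level in neutrophils, ending 108 bases before a RefSeq start, chr1:40085852-40085984: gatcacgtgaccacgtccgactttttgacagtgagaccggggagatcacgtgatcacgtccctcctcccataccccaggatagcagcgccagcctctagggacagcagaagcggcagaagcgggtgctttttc

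The distal stretch held 2 GATAA matches and 1 TTGCNNAA match, the proximal 1 GATAA match and the *Il18rap* stretch 1 GATAA match, while the printed stretches of *Il18r1* and *Il1r2* held none of the 4 motifs. This depends on where the stretches end. In the full 250 bases, *Il1r2* had 1 GATAA match, 86 bases before the start, and the proximal window of *Il1rl1* also had 1 TGTGGT match, 6 bases before it, whereas those of *Il18r1* had none. GATAA occurs in 22.6% of 32851 promoter windows of 250 bases, in 22.4% at 248 bases, in 12.0% at 136 bases and in 11.7% at 133 bases, and at 250 bases TTGCNNAA occurs in 9.56% and TGTGGT in 14.05%, so these matches are a description and mark no proven site. The motifs were picked with the expression values known. Between the end of *Il1rl1* and the start of *Il18r1* lie 136 bases. Mast cells, the group with the highest *Il1rl1* level, held no *Il18r1* UMI, but the interval of their ratio to the other gated cells held 1 (0 to 1.66). Basophils held both genes, with 61 *Il1rl1* and 151 *Il18r1* UMIs.

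Mast cells had 61 *Il1rl1* UMIs in 41 of 119 cells (34.5%, 26.0 to 43.7%), or 399 CPM (306 to 513), 66.7 times the other gated dermal cells (49.3 to 89.2). Without the richest cell (9 UMIs) the level was 356 CPM. Of the 41 mast cells deep enough to be thinned to 1000 UMIs, 26.8% kept one. The same number of UMIs, 61, in 236 basophils gave 56.8 CPM (43.4 to 72.9), so mast cells exceeded basophils by 7.04 times (4.85 to 10.2). Mast cell markers in basophils were at 0.53% of their mast cell level and *Il1rl1* at 14.2%. In mast cells *Il1rl1* was the only member of 8 past 4 times the rest, beside 3.69% of genes. At or below 1/4 were 3 (*Il1r2*, *Il18r1* and *Il18rap*), beside 5.14%. *Il18r1* and *Il18rap* had 0 UMIs there, and the intervals of their ratio to the rest held 1 (0 to 1.66 and 0 to 1.24). *Foxp3* T cells had 46.3 CPM from 15 UMIs, 4.196 times *Trac* T cells (1.72 to 10.9), and were not separated from basophils (ratio of basophils over *Foxp3* T cells 1.23, 0.69 to 2.32). The 20 epidermal basophils had 64.8 CPM from 4 UMIs. Neutrophils, as a low reference group, had 2.48 CPM, and monocytes were lower at 1.43 CPM.

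A few fibroblasts held much *Il1rl1*. The group had 60 UMIs in 18 of 334 cells (15.2 CPM), of which 21 and 16 were in 2 cells. Without these 2 cells it fell to 5.91 CPM (3.75 to 8.87). In the epidermis, 28 of all 38 *Il1rl1* UMIs came from 1 of the 4 cells gated as fibroblasts. That cell had 35471 UMIs, 169 of them *Dcn* (decorin, a matrix proteoglycan) and 29 *Tnc*, with no *Cpa3*, *Mcpt4* or *Ptprc*. The richest dermal cell had 41211 UMIs, with 351 for *Dcn*, 69 for *Tnc* and 1 for *Coch*. The second had 12781 UMIs, with 115 for *Dcn*, 35 for *Tnc* and 37 for *Coch*. In all, 58 of the 60 dermal fibroblast UMIs were in *Tnc* positive cells, these 2 included, and the *Tnc* positive cells held 79.4% of all fibroblast UMIs. After thinning, *Il1rl1* was seen in 0.43% of *Tnc* positive and 1.06% of *Tnc* negative fibroblasts. The choice of these cells followed from their values.

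*Il1rl2*, the IL-36 receptor chain, was found mainly in fibroblasts and keratinocytes. Dermal fibroblasts had 15.5 CPM (11.8 to 19.9, 61 UMIs in 52 cells), 9.24 times the other gated dermal cells. Basal keratinocytes had 13.3 CPM (12.5 to 14.1) from 1130 UMIs, 84.0% (81.9 to 85.9%) of the epidermal total, and spinous keratinocytes 12.1 CPM. Fibroblasts were not separated from basal keratinocytes (ratio 1.16, 0.88 to 1.505), nor spinous from basal cells (0.91, 0.78 to 1.06). Langerhans cells had 6.93 CPM from 10 UMIs and epidermal *Trdc* T cells 4.42 from 5. The highest point value, 22.3 CPM in 34 epidermal monocytes, rested on 3 UMIs. Neutrophils had 2.07 CPM, and basophils 0 of 1074279 UMIs, which allows up to 2.79 CPM. Endothelial cells (where this limit is 5.13 CPM) and Schwann cells (25.1 CPM) had none either. A UMI was found in 33.5% (31.7 to 35.3%) of basal keratinocytes at a median of 32594 UMIs, and in 1.77% after thinning to 1000. With *Il1rap*, 112 of 2583 basal keratinocytes and 22 of 334 fibroblasts held both chains. *Il1rap* was present in 12.9% of the *Il1rl2* positive and 8.0% of the negative basal keratinocytes, and the positive cells were deeper (medians 35474 and 30932 UMIs). After thinning to 1000 UMIs, 0 of 2542 basal keratinocytes and 0 of 326 fibroblasts held both.

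**Figure D4:**
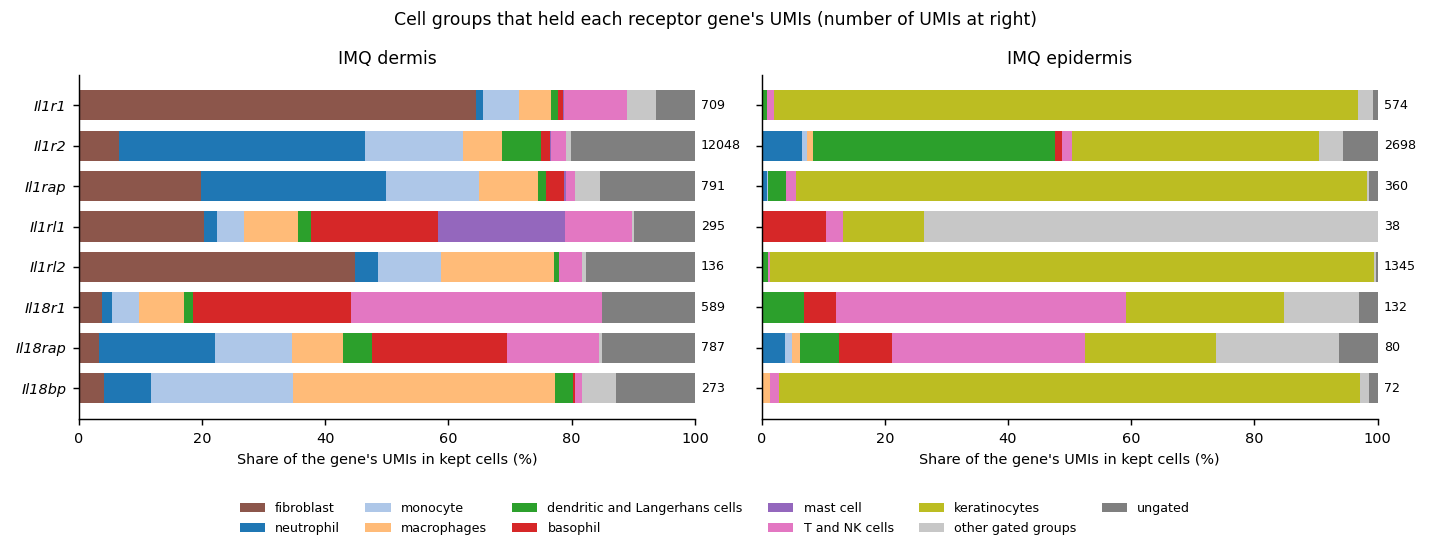
Share of each gene's UMIs carried by each class of cells, as stacked bars for the dermis and the epidermis libraries (all kept cells). Fibroblasts hold 64.5% of dermal *Il1r1* and neutrophils 40.0% of dermal *Il1r2*, and keratinocytes hold 98.1% of epidermal *Il1rl2*.

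*Il18r1* and *Il18rap*, the 2 chains of the IL-18 receptor, had their highest levels among large groups in basophils. *Il18r1* had 151 UMIs there, 141 CPM (119 to 165), with a UMI in 105 of 236 cells (44.5%, 38.0 to 51.1%) and 13.4 times the rest. *Il18rap* had 173 UMIs, 161 CPM (138 to 187), in 124 cells (52.5%, 46.0 to 59.1%), and 10.8 times the rest. Thinned to 1000 UMIs, 14.6% of basophils held *Il18r1* and 15.9% held *Il18rap*, and the median depths were 4357.5 UMIs in basophils and 3700 in neutrophils, where 1.71% of cells as sequenced held *Il18r1*. Basophils thus had 3 members past 4 times the rest (*Il1rl1*, *Il18r1* and *Il18rap*), beside 3.55% of genes, and 2 at or below 1/4 (*Il1rl2* and *Il18bp*), beside 15%. For *Il1rl2*, with 0 UMIs, the interval of the ratio to the rest held 1 (0 to 1.04). The 20 epidermal basophils had 7 UMIs of each IL-18 receptor chain. Mast cells, their relatives, had 0 UMIs of either chain in 119 cells, where a count of 0 allows up to 19.6 CPM, and the exact interval of the ratio of mast cells to basophils ended at 0.17 for *Il18r1* and 0.15 for *Il18rap*.

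Lymphocytes held *Il18r1* as well. Other T cells, with *Il13* and *Gata3* among their leading genes, had 159 CPM (114 to 216, 41 UMIs in 47 cells) and were not separated from basophils (ratio 1.13, 0.78 to 1.61). Natural killer (NK) cells had 111 CPM, dermal *Trdc* T cells 88.2, *Trac* T cells 79.8 and *Foxp3* T cells 49.4. *Il18r1* was the 1 member of 8 past 4 times the rest in dermal *Trac* T cells, beside 3.85% of genes, and in dermal *Trdc* T cells, beside 3.7%. At or below 1/4 were *Il1rap* in dermal *Trac* T cells, beside 10.8% of genes, and *Il1rap* and *Il18bp* in dermal *Trdc* T cells, beside 10.7%. Epidermal *Trdc* T cells had 54.9 CPM (42.1 to 70.3, 62 UMIs), and dermal *Trdc* T cells exceeded them by 1.61 times (1.16 to 2.25). Against the rest of the gated epidermis these cells were 85.7 times higher, and with *Il18rap* (22.1 CPM, 25 UMIs) they had 2 members past 4 times, beside 14.5% of genes. Langerhans cells had 3, namely *Il1r2*, *Il18r1* (9 UMIs, 6.24 CPM) and *Il18rap* (5 UMIs, 3.46 CPM), beside 7.1% of genes. Keratinocytes, at 0.31 CPM of *Il18r1* in basal cells, set the comparison for both epidermal groups, in which no member was at or below 1/4.

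In neutrophils the pair was unequal. For *Il18rap*, the accessory chain, they had 149 UMIs in 114 of 527 cells (61.7 CPM, 52.2 to 72.4), which was 38.3% of the basophil level. For *Il18r1*, the binding chain, they had 10 UMIs in 9 cells (4.14 CPM), 2.95% of the basophil level. Basophil markers in neutrophils were at 0.41% of their basophil level. Dendritic cells named for *Cd209a* and *Flt3* had 27 *Il18rap* UMIs (22.9 CPM) and 4 of *Il18r1* (3.40 CPM), or 14.2% and 2.42% of the basophil levels. NK cells (94.8 CPM), other T cells (81.5), *Trac* T cells (46.6) and dermal *Trdc* T cells (33 UMIs) had *Il18rap* as well. Resident-type macrophages were low for both chains, at 4.23 CPM for *Il18rap* and 2.97 for *Il18r1*.

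Both IL-18 receptor chains were found together in 57 of 236 basophils, 10 of 29 NK cells, 17 of 85 *Trac* T cells and 16 of 97 dermal *Trdc* T cells. In basophils *Il18rap* was present in 54.3% of *Il18r1* positive and 51.1% of negative cells. After thinning, 7 of 233 basophils held both. Neutrophils held both in 2 cells of 527, and epidermal *Trdc* T cells in 2 of 452.

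Dermal T cells were compared by *Il17a*, the gene of a cytokine that drives psoriasis-like inflammation. The 78 T cells with an *Il17a* UMI had 46.6 CPM of *Il1r1* (50 UMIs) and the 197 without had 16.2 (23 UMIs), a ratio of 2.88 (1.73 to 4.95). The cells with *Il17a* were deeper (medians 10920 and 5746 UMIs), and after thinning the shares with *Il1r1* were 6.41% and 0.52%. *Il18r1* went the other way, with 62.4 CPM against 107 (ratio 0.58, 0.43 to 0.78), and so did *Il1rl1*, with 3 UMIs against 29 (0.14, 0.03 to 0.44), and *Il1r2* (0.64, 0.50 to 0.82). These sets pooled all dermal T cell groups, and the 46 *Foxp3* T cells held 15 *Il1rl1* and 138 *Il1r2* UMIs. The part of the mix of T cell groups in these ratios was not tested. *Il18rap* was not resolved (0.76, 0.49 to 1.16). With 2 or more *Il17a* UMIs required, the *Il1r1* ratio was 2.64 (1.52 to 4.66). Within *Trdc* T cells alone (41 with and 56 without), *Il18r1* kept its direction (0.48, 0.31 to 0.73). There *Il1r1* was 1.86 (0.98 to 3.69), an interval that includes 1, and *Il1r2* turned to 4.54, with 33 of its 75 UMIs in 1 cell. *Il1rl1* was not resolved in them, with 1 UMI against 2 (0.42, 0.007 to 8.13).

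**Figure D5:**
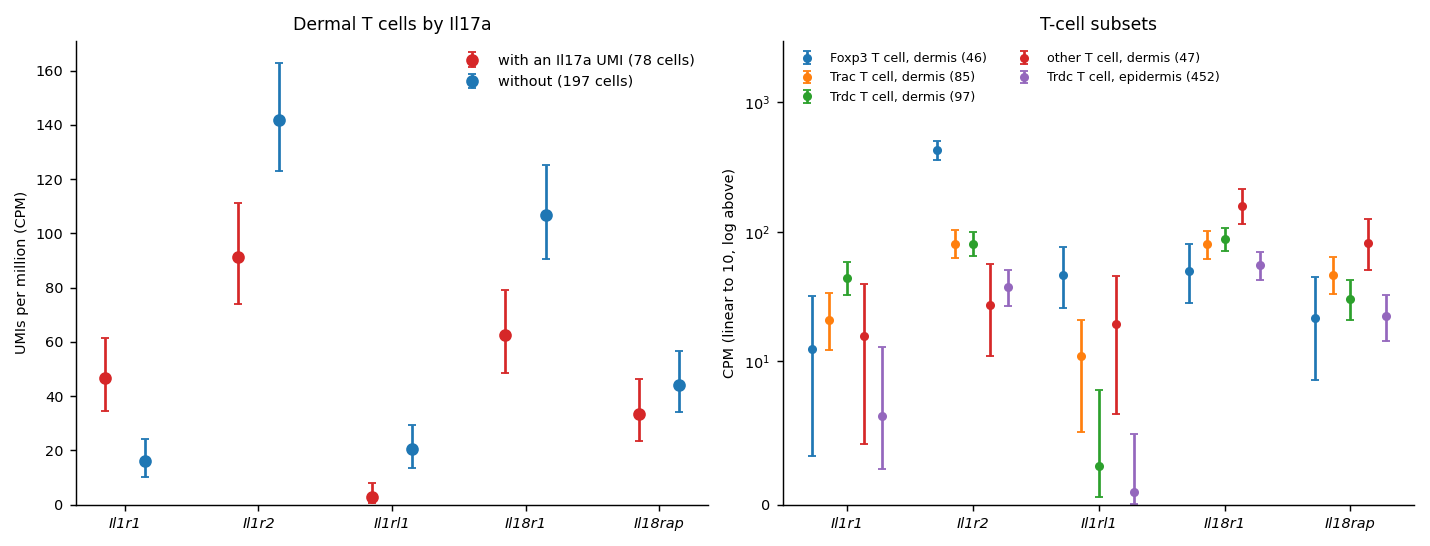
The left panel shows CPM of 5 genes in dermal T cells with and without an *Il17a* UMI (78 and 197 cells, 95% intervals), and the right panel the same genes in 5 T cell groups, on an axis that is linear to 10 CPM and logarithmic above. *Il1r1* is higher in the cells with *Il17a* (46.6 against 16.2 CPM) and *Il18r1* lower (62.4 against 107).

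*Foxp3* T cells differed from *Trac* T cells in 2 receptors, *Il1rl1* as given above and *Il1r2*, at 5.26 times the *Trac* level (3.90 to 7.17). Of their 138 *Il1r2* UMIs, 68 (49.3%) were in 4 of the 46 *Foxp3* T cells, and the median was 1. Without cells that held 10 or more, the level was 253 CPM in *Foxp3* and 67.2 CPM in *Trac* T cells. For the other members the interval of the ratio of *Foxp3* to *Trac* T cells held 1, for example 0.62 (0.33 to 1.08) for *Il18r1* and 0.46 (0.17 to 1.05) for *Il18rap*.

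*Il18bp*, the soluble IL-18 inhibitor, was spread thinly. The 39 endothelial cells had 25.7 CPM (14.4 to 42.3), from 15 UMIs. Resident-type macrophages had 11.1 CPM (8.68 to 14.02, 71 UMIs in 53 of 517 cells), neutrophils 8.70, other macrophages 8.45 and monocytes 6.93, and the 2 macrophage groups were not separated (ratio 1.32, 0.89 to 1.96). Fibroblasts had 2.79 CPM, *Trac* T cells 1 UMI, and mast cells and *Foxp3* T cells 0. Resident-type macrophages had no member past 4 times the rest, beside 0.722% of genes, and 5 at or below 1/4 (*Il1r1*, *Il1r2*, *Il1rl1*, *Il18r1* and *Il18rap*), beside 11.8%. In the epidermis, basal keratinocytes held 65 of the 72 UMIs, at only 0.77 CPM, and spinous cells 3 UMIs (ratio 0.26, 0.05 to 0.78). Without the keratinocytes close to the boundary between the groups, the ratio was 0.27 (0.03 to 1.02), an interval that includes 1.

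Across the 14 groups of at least 50 cells, the log2(CPM + 1) levels of *Il18r1* and *Il18rap* had a Pearson r of 0.82, *Il1r2* and *Il1rap* 0.64, *Il1r2* and *Il18rap* 0.57, and *Il1rl1* and *Il1rl2* -0.63. These describe 14 groups that share 2 libraries and their depths. Among 11179 other genes, those closest to *Il1r1* were *Cdon*, *Wwox* and *Abi3bp* (r from 0.88 to 0.90). *Il1rl1* was closest to *Gata2*, a transcription factor of mast cells and basophils (0.93), *Pde4d* and *Gnb4*, and genes close to *Il18r1* included *Zdhhc18* and *S1pr4* (both 0.92). *Il18rap* was closest to *Map4k2*, *Ssh2* and *S1pr4* (0.93 to 0.94), *Il1rl2* to *B9d1*, *Smtn* and *Nrtn* (0.94 to 0.97), and *Il18bp* to *Bach1*, *Aldh3b1* and *Slc11a1* (0.93 to 0.95). *Il1r2* was nearest to *Mthfsl*, *Gcnt2* and *Maff* (0.86 to 0.89), and *Il1rap* to *Gm17619*, *Ankrd33b* and *Selenon* (0.85 to 0.88). With Spearman's rho in place of Pearson's r, 5 of the 24 nearest genes (3 per member) stayed among the nearest 3.

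The pathway around the receptors was read from 4 lists. The common signalling chain, from *Myd88* to *Nfkbia*, held 21 genes. Its median log2 fold lay below that of all genes tested in fibroblasts (-0.34 beside 0.08), dermal *Trac* (-0.18 beside 0.01) and dermal *Trdc* T cells (-0.40 beside -0.003). It lay above in neutrophils (-0.04 beside -0.83), basophils (-0.13 beside -0.55) and mast cells (0.55 beside 0.37). The same held for Langerhans cells (0.02 beside -0.30) and epidermal *Trdc* T cells (0.69 beside 0.41). In resident-type macrophages the medians were close (-0.07 beside -0.09). None of the 21 was past 4 times the rest, up or down, in fibroblasts, mast cells, resident-type macrophages or dermal *Trac* T cells. Neutrophils had 1 up (*Nfkbia*, an NF-κB inhibitor, 4367 CPM), basophils 1 up (*Jun*, 5257 CPM) and 1 down (*Ikbkg*), dermal *Trdc* T cells 1 down (*Ikbkg*), Langerhans cells 1 up (*Ikbkb*, 85.2 CPM) and 1 down (*Irak3*), and epidermal *Trdc* T cells 1 up (*Irak2*, 33.6 CPM). The share of all genes at or below 1/4 was 9.03% in Langerhans cells and 5.27% in epidermal *Trdc* T cells, and for the other groups is given above. Of 3 further family receptors only *Sigirr*, an inhibitory one, had enough UMIs. It was past the limit upward in dermal *Trac* T cells (24.5 CPM), in dendritic cells named for *Cd209a* and *Flt3* (22.1 CPM) and in epidermal *Trdc* T cells (13.3 CPM), and downward in fibroblasts (1.01 CPM), resident-type macrophages and Langerhans cells. In those dendritic cells no member was past 4 times the rest, beside 1.63% of genes, and *Il1r1* was at or below 1/4, beside 10.1%.

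The ligands and the genes that process them were read in the same way. Shares of all genes past the limit, up and down, were 2.8% and 13% in neutrophils and 11.5% and 6.96% in fibroblasts. They were 7.1% and 9.03% in Langerhans cells, 3.69% and 5.14% in mast cells, and 3.55% and 15% in basophils. Resident-type macrophages had 0.722% and 11.8%, and epidermal *Trdc* T cells 14.5% and 5.27%. Dermal *Trdc* T cells had 3.7% and 10.7%, and dermal *Trac* T cells 3.85% and 10.8%. In neutrophils 4 of 6 ligands tested were past 4 times the rest (*Il1b* at 6686 CPM, *Il1f9*, which encodes IL-36γ, at 392, *Il1rn* at 340 and *Il1a* at 92.3 CPM), in the same cells that led for the decoy *Il1r2*. In fibroblasts *Il33* was up (57.6 CPM) and *Il1a* and *Il18* down, and in Langerhans cells *Il1b* (288 CPM) and *Il18* (179 CPM) were up and 4 of 9 down. No ligand was up in mast cells, basophils, resident-type macrophages or epidermal *Trdc* T cells, where 2 of 6, 3 of 6, 3 of 6 and 3 of 9 were down. In dermal *Trac* and *Trdc* T cells, 6 of 6 ligands were down in each. Among 7 processing genes, the inflammasome sensor *Nlrp3* was up in neutrophils (247 CPM) and, with *Gsdmd*, in Langerhans cells, the protease gene *Ctsg* was up in mast cells (262 CPM) and basophils (124 CPM), and *Gsdmd* was up in epidermal *Trdc* T cells. Downward, the processing list had 3 of 6 in fibroblasts and in dermal *Trac* and *Trdc* T cells, 2 of 6 in mast cells, basophils and resident-type macrophages, 1 of 6 in neutrophils and 1 of 4 in epidermal *Trdc* T cells.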

How the data were processed

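Gene counts were analysed for 2 libraries of single cells, 1 of dermis and 1 of epidermis. The deposited matrices hold raw UMI counts per gene and barcode, which the authors made from Chromium 3′ v3 libraries with CASAVA and Cell Ranger on mm10, per the submitters' processing notes, and the matrix header names Cell Ranger 3.0.2. Depth was 41258087 UMIs in dermis and 108768396 in epidermis.

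Cells were kept where 200 genes or more were detected and mitochondrial genes took no more than 10% of UMIs. Each cell was assigned by 143 markers of 21 types, with at least 3 markers detected and a score of 0.15 or more. The score had to be 1.25 times that of the next type, except among keratinocyte types and among dendritic cell types other than Langerhans cells. Langerhans cells also needed a *Cd207* UMI. Doublets were left in, and leaving out the highest Scrublet scores was an alternative. The resulting sums were expressed as CPM. A gene was counted as past the limit at 4 times (or 1/4 of) the CPM of the other gated cells, with 0.5 UMI added to both, 20 UMIs or more in the library and, for the upper limit only, 3 in the group, the last set after values were seen. No test between tissues was made. Cells were thinned to 1000 UMIs without replacement with a fixed seed for shares of cells, shallower cells left out.

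The members, the pathway lists and the motifs were chosen with earlier results of these data known. Genes named were the 8 members, the pathway genes past the limit in a group where a member was high, and, per member, the 3 genes with the highest Pearson r of log2(CPM + 1) over groups of at least 50 cells. Of these, 1 is not reported here. The lists held 21 signalling genes, 3 other receptors, 11 ligands (10 found) and 7 processing genes. The calculation of intervals, folds and thinning was tested on simulated data. Gene positions came from the GENCODE annotation of GRCm38, in which 30934 of 31053 gene identifiers were found. Python 3.11.15, numpy 2.4.6, scipy 1.17.1, scanpy 1.11.5, leidenalg 0.10.2 and matplotlib 3.10.9 were used. The study's own limits, which add an upper limit on genes and set a lower mitochondrial limit, were an alternative, as were 4 markers, no margin, no filter, clusters in place of gates and means over cells.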

Additional observations from a re-analysis of the deposited data

Results flagged for a closer look

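Cells that the filters left out also held members, at levels above what a count of 0 allows (3.47 CPM in dermis and 0.80 CPM in epidermis). The 629 dermal cells left out (median 1070 UMIs, 24.3% mitochondrial) had 114 CPM of *Il1r2*, 31.2 of *Il1r1*, 26.6 of *Il18r1*, 25.4 of *Il18rap*, 19.6 of *Il1rap*, 11.6 of *Il1rl1*, 10.4 of *Il18bp* and 9.25 of *Il1rl2*. The 1085 epidermal cells left out (median 2704 UMIs, 24.9% mitochondrial) had 32.1 CPM of *Il1rl2*, 11.2 of *Il1r1*, 8.30 of *Il1r2*, 6.69 of *Il1rap* and 1.07 of *Il18rap*. For *Il1rl2* this was 2.51 times the level of the kept epidermal cells (2.06 to 3.03), from 120 UMIs. Of these cells, 825 passed the basal keratinocyte gate, at 32.7 CPM of *Il1rl2*, and 162 the spinous gate, at 35.2 CPM. The part of damaged cells in these values was not tested.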

How the results depend on the processing

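Each member's CPM in its leading group was recomputed under 9 other choices. Of the 72 values, 66 stayed within the counting interval of the reported level. With clusters named by the same markers in place of gates, *Il1r1* was 102 CPM in fibroblasts, and *Il1r2* 1607 and *Il1rap* 80.0 CPM in neutrophils, from larger groups (420 and 755 cells). Without a margin between types *Il1r2* was 1882 CPM. As a mean over cells, *Il1r2* was 2220 and *Il1rap* 113 CPM. The leading group of at least 50 cells was kept in 53 of 56 cases. The exceptions were *Il1rap* in Schwann cells (121 CPM, 56 cells) and *Il18bp* in endothelial cells (27.7 CPM, 55 cells) with clusters, and *Il18r1* in other T cells (178 CPM, 54 cells) with no filter. In the first 2, clustering carried small groups past 50 cells. The median share of genes past 4 times the rest over the 8 groups in which a member passed, of 14, was 3.78% and at 2 times 12.6%, with 15 and 21 member calls. Shares of thinned cells rise with the thinning depth by construction. The choice to leave out cells with a barcode in both libraries was made after seeing the data. No paired analysis was possible because no second library of either tissue was analysed.

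Groups under 50 cells, such as Schwann, endothelial, NK and *Foxp3* T cells and epidermal neutrophils, rest on 0 to 177 UMIs for the values given and cannot order close neighbours. Mast cells at a median of 825 UMIs, and epidermal *Trdc* T cells at 2345.5, limit what a count of 0 shows there. Intervals leave out variation between animals, which 1 library per tissue cannot measure.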
